A study of Mus musculus with 6 samples.

Results

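The 10 genes described here encode proteins that build and organize the mitotic spindle: Aspm, Nusap1, Tpx2, Spag5, Ckap2, Ckap2l, Ckap5, Haus1, Gas2l3 and Hmmr. They were taken by symbol from the 15553 genes of the deposited table, and all 10 were found and passed the filter on low values, as did 13179 genes in all. The list was drawn up with results of the same genotype comparison known, so the differences between genotypes in these 10 genes are given as a description and carry no test. RNA came from bone marrow of C57BL/6 mice aged 6 to 8 weeks, with 3 libraries labelled wild type and 3 labelled Yy1 knockout. YY1 is a zinc-finger transcription factor with Polycomb function, and the title of the series names its role in the quiescence of hematopoietic stem cells. Every mouse carried Mx1-Cre, a Cre recombinase under an interferon-inducible promoter that is active well beyond stem cells. The wild-type genotype is given as Mx1-Cre alone and the knockout as Yy1f/f;Mx1-Cre, in which loxP sites flank both Yy1 alleles. The cells were sorted as lineage-negative, Sca1+ and c-Kit+. The source field names a CD150+ gate, whereas the protocol text names CD48- cells of both a CD150+ and a CD150- gate, so the gate of a given library is not settled. The labels do not say that each library came from its own mouse. A p-value here judges the genotype difference against the spread among these 3 libraries per genotype, and that spread may be partly technical.

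The spindle is the array of microtubules that moves chromosomes apart at cell division. New microtubules start at the poles, around chromosomes and as branches on existing microtubules, and a set of non-motor proteins starts, bundles, anchors and lengthens them. Many of the genes for these proteins are transcribed mainly in G2 and mitosis and stay low in resting cells, and most stem cells of adult marrow are at rest. In bulk RNA, more cells in division and more RNA per dividing cell cannot be told apart, and this holds for every value below.

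Promoter sequence was not itself used in choosing the genes, but they were chosen as genes of the mitotic spindle. Their promoters were compared with all promoters and not with those of other mitotic genes. The shares below therefore do not show a trait particular to these genes. RefSeq promoter windows on GRCm38.p6, from 250 bases before to 50 after the gene start, were matched by symbol for 8 of the 10 genes, all but Tpx2 and Haus1. Each window was searched on both strands for the CHR element, written TTTGAA or TTCGAA, which is bound by the MuvB complexes that repress these genes in resting cells and activate them in G2. It was also searched for the CCAAT box, written CCAAT, which binds NF-Y. Of the 8 windows, 7 held a CHR match, against 19.2% of the 32851 promoters in the table, and 7 held a CCAAT box, against 37.4%. Nusap1 was the gene with neither. The CHR matches lay close to the start, within 50 bases of it in 6 of the 8 genes, against 5.31% of all promoters. In the 250 bases before the start alone, 4 of the 8 genes held a CHR match (17.1% of all promoters) and 7 held a CCAAT box (33.8%). The short stretches around the CHR matches are shown because 7 of the 8 promoters hold this element. Each is written on the strand of the gene with the match in capitals, where TTCAAA is TTTGAA read on the other strand, and the positions count from 0 at the start, negative before it.
Aspm, first base of the match at 6: aggcgcgataTTTGAAccgagcaaaa
Hmmr, at 8: ttgaggtaaaTTTGAAttcaggcgag
Spag5, at 3: gcgtattgggTTCAAAtagaggcggc
Gas2l3, at -8: gattggctccTTCGAAacaggcggcc
Ckap2l, at -30: attggcgaatTTCAAAgtcgcggaag
Ckap5, at -45: ccacagctctTTCAAAcggaccaata
Ckap2, at -101: tttgttcgatTTTGAAatttctcgcc
Ckap2l held another match at 41. These stretches lie at chr1:139454769-139454794 (Aspm, plus strand), chr11:40733414-40733439 (Hmmr, minus strand), chr11:78301584-78301609 (Spag5, plus strand), chr10:89443960-89443985 (Gas2l3, minus strand), chr2:129297227-129297252 (Ckap2l, minus strand), chr2:91526707-91526732 (Ckap5, plus strand) and chr8:22185905-22185930 (Ckap2, minus strand).

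Hmmr had the densest run of CCAAT boxes among the 8 windows, with 5. The stretch from -200 to -31 (chr11:40733468-40733637, minus strand) holds 4 of them, all on the opposite strand, where the box reads ATTGG and is shown in capitals.
Hmmr upstream: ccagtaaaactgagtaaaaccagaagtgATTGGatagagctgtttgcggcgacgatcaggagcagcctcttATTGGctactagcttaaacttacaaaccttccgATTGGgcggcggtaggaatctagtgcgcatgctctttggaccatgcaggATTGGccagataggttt
The 8 windows held 17 CCAAT boxes together, whereas the mean over all promoters was 0.539 per window. A YY1 site, written AANATGGC, was found in 0 of the 8 windows (6.05% of all promoters), and an E2F site, written TTTCCCGC or TTTGGCGC, in 0 of the 8 (1.56%). These are letter matches in a fixed window and do not show binding. The windows were rich in G and C, with a median of 58.2% (range 50.7% to 63.3%) against 52.7% over all promoters.

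**Figure D1:**
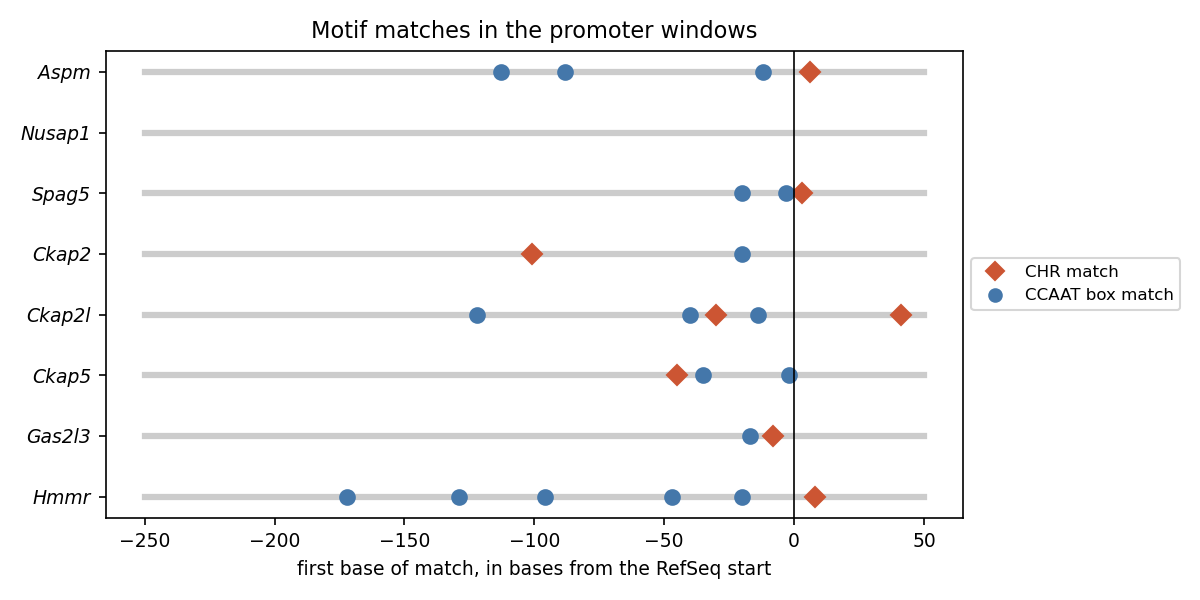
Matches to the CHR element (diamonds) and the CCAAT box (circles) in the RefSeq promoter windows of the 8 genes with a window, by the first base of the match in bases from the gene start (x axis). CHR matches of 6 genes lie within 50 bases of the start, Ckap2 has its match at -101, and Nusap1 has neither element.

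Before the values, 2 facts about the libraries bear on them. Yy1 itself stood at 31.6, 42.3 and 52.1 RPKM in wild-type replicates 1 to 3, against 36.2, 16.6 and 28.5 RPKM in the knockout replicates, where RPKM are reads scaled by gene length and library size. The groups overlapped, the log2 fold change was -0.66 (standard error 0.32, limma adjusted p = 0.680), and the library labelled Yy1 knockout replicate 1 lay inside the wild-type range. With knockout replicate 2 left out the log2 fold change was -0.35, and with knockout replicate 1 left out it was -0.90. The reads cover the whole gene, and the labels do not say which part was to be deleted. Wild-type replicate 3 had 1991 genes listed at 0, against 373 to 1099 in the other libraries. Where leaving out 1 of the 6 libraries moved a log2 fold change by over 1.5 times, the value without it, or the range over such values, is given beside it. Reads recovered in listed genes numbered 15102984 to 21757042 per library.

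All 10 spindle assembly genes had a higher mean in the knockout libraries, and in all 10 every knockout library lay above every wild-type library. Among all 13179 genes tested, 7.63% had every knockout library above every wild-type library, and since the list was chosen on this comparison the count of 10 is a description only. The summed level of the 10 genes was 111, 119 and 89.7 RPKM in wild type against 235, 238 and 285 RPKM in knockout, or 106 ± 15.1 against 253 ± 28.0 RPKM (SD, n = 3 each, as for all later means). The log2 fold changes, on the log2(RPKM + 0.5) scale on which low genes are understated, ran from 0.58 for Ckap5 to 2.14 for Spag5 with a median of 1.39, against a median of 0.02 over all tested genes. With wild-type replicate 3 left out the median of the 10 genes came to 1.27, and with knockout replicate 1 left out to 1.38. In 8 of the 10 the knockout mean was at least 2 times the wild-type mean (7.22% of all tested genes), and the exceptions were Ckap2l and Ckap5.

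**Figure D2:**
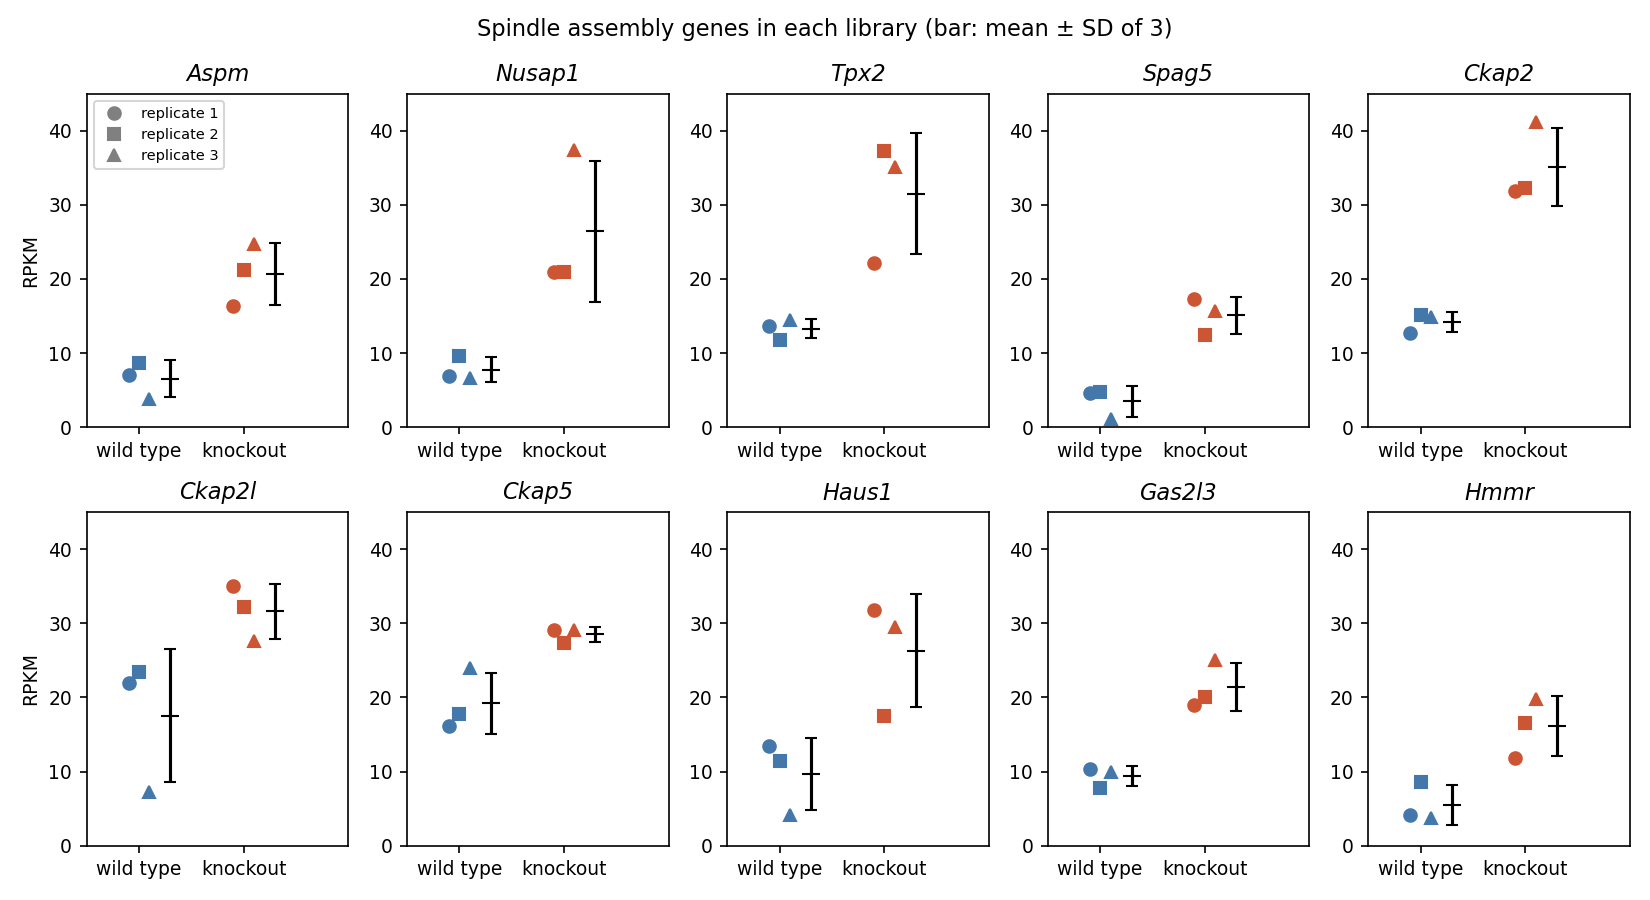
RPKM (y axis, from 0) of the 10 spindle assembly genes in each library, wild type in blue and knockout in red, with marker shapes for replicates and a black bar for the mean ± SD of 3. In each panel the lowest knockout library lies above the highest wild-type library, by 16.7 RPKM in Ckap2 and by 3.28 RPKM in Hmmr.

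The first group of genes acts at the spindle poles and in the start of new microtubules. Aspm (ENSMUSG00000033952, chromosome 1: 139454772 to 139494091, plus strand; all gene positions are GENCODE M21 on GRCm38) encodes a large protein that holds microtubule minus ends at the poles and whose human counterpart is the most often mutated gene of primary microcephaly. It stood at 6.99, 8.72 and 3.80 RPKM in wild type against 16.4, 21.2 and 24.7 RPKM in knockout. The lowest knockout value was 1.88 times the highest wild-type value, and the means were 6.51 ± 2.50 and 20.7 ± 4.16 RPKM. The log2 fold change was 1.65 (standard error 0.35), or 1.33 without wild-type replicate 3. It rested on 652 to 1629 reads per wild-type library and 3302 to 5583 per knockout library, spread over 11590 exonic bases, the longest of the 10 genes.

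Tpx2 (ENSMUSG00000027469, chromosome 2: 152847964 to 152895321, plus strand) encodes the factor that, once released from importins by Ran, activates the kinase Aurora A and starts microtubules near chromosomes. Its level was 13.6, 11.8 and 14.4 RPKM in wild type against 22.2, 37.3 and 35.1 RPKM in knockout. The wild-type libraries lay close together, and knockout replicate 1 was the lowest of the knockout libraries. The means were 13.3 ± 1.34 and 31.5 ± 8.13 RPKM, and the log2 fold change was 1.19 (standard error 0.26), or 1.42 without knockout replicate 1. Hmmr (ENSMUSG00000020330, chromosome 11: 40701395 to 40733422, minus strand) encodes RHAMM, a hyaluronan receptor that also binds microtubules at the poles and helps to place Tpx2 there. It stood at 4.15, 8.55 and 3.69 RPKM in wild type against 11.8, 16.6 and 19.8 RPKM in knockout. Wild-type replicate 2 was the highest wild-type library and lay nearer to knockout replicate 1 than to the other wild-type libraries, and the log2 fold change was 1.54 (standard error 0.39), or 1.33 without wild-type replicate 3.

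Haus1 (ENSMUSG00000041840, chromosome 18: 77757567 to 77773886, minus strand) encodes a subunit of augmin, the complex that starts branch microtubules on existing ones. Its values were 13.4, 11.4 and 4.11 RPKM in wild type against 31.8, 17.5 and 29.5 RPKM in knockout. Wild-type replicate 3 was the lowest library and knockout replicate 2 lay nearest to wild type, at 1.31 times the highest wild-type value. The means were 9.65 ± 4.90 and 26.3 ± 7.65 RPKM, and the log2 fold change was 1.50 (standard error 0.46), or 1.01 without wild-type replicate 3. Haus1 shares 129 exonic bases, 1.80% of its exonic length, with Atp5a1 on the opposite strand, which stood at 176 to 261 RPKM in wild type against 182 to 191 RPKM in knockout. No strand setting of the counting is known, so reads from that stretch cannot be assigned.

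The other 7 augmin subunit genes were measured beside Haus1, and limma called 0 of 7 at an adjusted p under 0.05 (0% of all tested genes). With an unadjusted p under 0.05 there were 0 of 7 (7.79% of all tested genes). Of the 7, 6 had a log2 fold change above 0 (51.9% of all tested genes) and 1 below, with a median of 0.45. In all 7 the libraries of the genotypes overlapped, where 7.63% of all tested genes were separate and higher in knockout and 6.87% separate and lower. Counts of 0 among 7 genes do not set these subunits apart from all genes. Haus6 stood at 10.1, 6.26 and 5.35 RPKM in wild type against 12.6, 8.25 and 8.89 RPKM in knockout, a log2 fold change of 0.45 (standard error 0.35) that ran from 0.28 without wild-type replicate 3 to 0.70 without wild-type replicate 1. The log2 fold change of Haus2 was -0.10 (standard error 0.33) and that of Haus4 0.09 (standard error 0.42), and both changed sign with 1 library left out, over ranges of -0.35 to 0.10 and -0.24 to 0.58. The largest belonged to the lowly expressed Haus8, at 0.78 (standard error 0.81), which turned to -0.13 without wild-type replicate 3 and was 1.41 without wild-type replicate 1, and to Haus7, at 0.50 (standard error 0.47; 0.13 without wild-type replicate 1 and 1.03 without wild-type replicate 3), with 20.3 RPKM in wild-type replicate 3 against 5.49 and 7.51 RPKM in the other wild-type libraries. Whether Haus1 differed in its change from the other subunits was not tested, because Haus1 was chosen on this comparison.

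The second group binds, bundles and stabilizes microtubules. Nusap1 (ENSMUSG00000027306, chromosome 2: 119618298 to 119651244, plus strand) encodes a protein that bundles spindle microtubules around chromosomes. It stood at 6.96, 9.65 and 6.63 RPKM in wild type against 20.9, 20.9 and 37.4 RPKM in knockout. Knockout replicate 3 was the highest library, and even the lower knockout libraries were at least 2.16 times the highest wild-type value. The means were 7.75 ± 1.66 and 26.4 ± 9.53 RPKM, with a log2 fold change of 1.67 (standard error 0.31), or 1.39 without knockout replicate 3. Nusap1 shares 172 exonic bases with Oip5 on the opposite strand, a gene at 0.228 to 4.53 RPKM in wild type against 0.291 to 4.50 RPKM in knockout.

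Ckap2 (ENSMUSG00000037725, chromosome 8: 22168160 to 22185819, minus strand) encodes a spindle protein that promotes microtubule growth, and Ckap2l (ENSMUSG00000048327, chromosome 2: 129268210 to 129297212, minus strand) encodes its relative, also called radmis. Ckap2 stood at 12.7, 15.1 and 14.9 RPKM in wild type against 31.8, 32.3 and 41.1 RPKM in knockout. It had the smallest standard error of the 10 genes, 0.21, on a log2 fold change of 1.27, with means of 14.2 ± 1.31 and 35.1 ± 5.23 RPKM. Ckap2l stood at 22.0, 23.4 and 7.18 RPKM in wild type against 35.0, 32.2 and 27.6 RPKM in knockout. The genotypes were close here, since the lowest knockout value was 1.18 times the highest wild-type value and wild-type replicate 3 was far below the rest. The log2 fold change of Ckap2l was 1.0 (standard error 0.43), and without wild-type replicate 3 it was 0.46. Ckap2l shares 181 exonic bases, 5.77% of its exonic length, with Gm14024 on the opposite strand.

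Gas2l3 (ENSMUSG00000074802, chromosome 10: 89408823 to 89443967, minus strand) encodes a linker of actin and microtubules found on the late spindle and midbody. It stood at 10.4, 7.83 and 9.94 RPKM in wild type against 19.0, 20.1 and 25.1 RPKM in knockout, with little spread inside either genotype. The means were 9.39 ± 1.37 and 21.4 ± 3.21 RPKM and the log2 fold change was 1.15 (standard error 0.24). Leaving out any 1 library gave 1.03 to 1.22. Of its family, Gas2 and Gas2l1 were tested and neither passed. Reads in Gas2l1 numbered 1, 4 and 14 in wild type against 217, 134 and 234 in knockout (0.0127, 0.0407 and 0.155 against 2.04, 1.26 and 1.96 RPKM). Its log2 fold change of 1.97 (standard error 0.68, limma adjusted p = 0.568) was 3.51 with a pseudocount of 0.1 RPKM and 1.35 with a pseudocount of 1, since wild type lay near 0. Gas2, at 0.775 ± 0.599 and 1.34 ± 0.552 RPKM, had a log2 fold change of 0.63 (standard error 0.71), which was 0.15 without wild-type replicate 3, 0.40 without knockout replicate 1, 0.15 under quantile normalization and 1.40 in limma-voom.

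The third group acts at microtubule plus ends and kinetochores. Ckap5 (ENSMUSG00000040549, chromosome 2: 91526762 to 91620664, plus strand) encodes ch-TOG, the polymerase that adds tubulin to plus ends in interphase as well as in mitosis. It stood at 16.1, 17.7 and 23.9 RPKM in wild type against 29.1, 27.4 and 29.1 RPKM in knockout. Its difference was the smallest of the 10 genes, with means of 19.2 ± 4.12 and 28.5 ± 0.987 RPKM, a ratio of 1.48. The log2 fold change was 0.58 (standard error 0.22), and without wild-type replicate 3, which was its highest wild-type library, it was 0.74. Spag5 (ENSMUSG00000002055, chromosome 11: 78301529 to 78322457, plus strand) encodes astrin, which stabilizes the attachment of kinetochores to microtubules and works with kinastrin. It stood at 4.62, 4.72 and 1.09 RPKM in wild type against 17.3, 12.4 and 15.6 RPKM in knockout. Its difference was the largest of the 10 on the log2 scale, with means of 3.48 ± 2.07 and 15.1 ± 2.50 RPKM and a log2 difference of 2.14 (standard error 0.51). Only 91 reads lay in Spag5 in wild-type replicate 3, against 336 and 428 in the other wild-type libraries and 1217 to 1717 in knockout, and without that replicate the log2 fold change was 1.58.

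**Figure D3:**
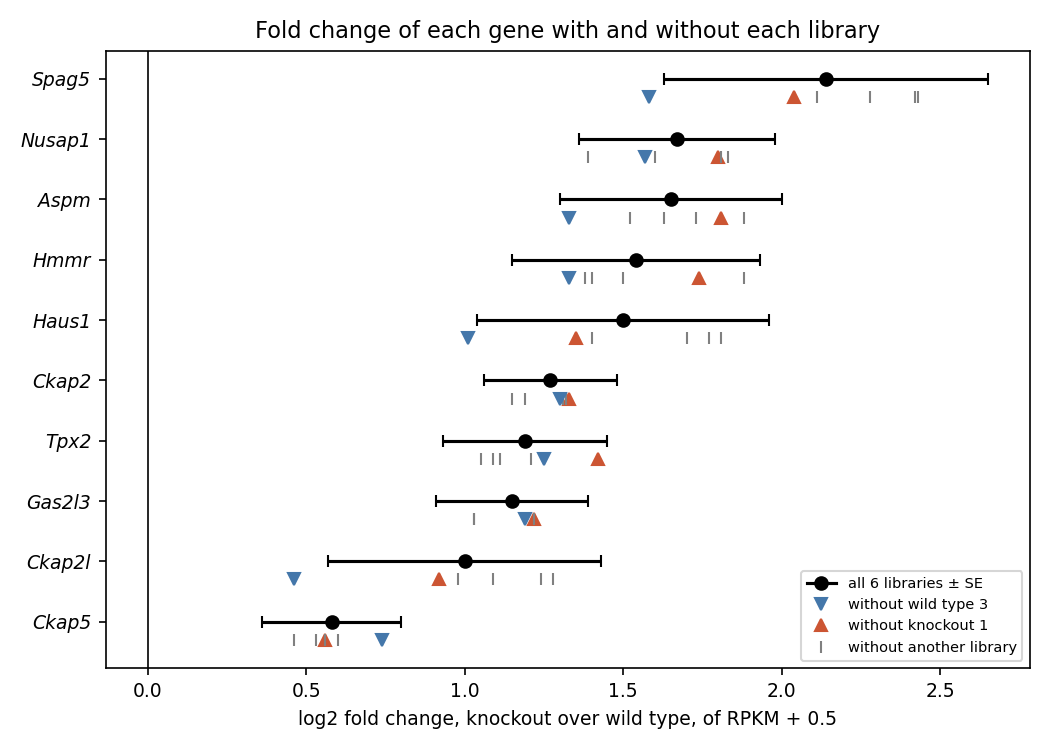
Log2 ratio of knockout to wild type for each gene, on the log2(RPKM + 0.5) scale (x axis), with all 6 libraries (black, ± standard error) and with 1 library left out (small markers below each line). Leaving out wild-type replicate 3 gives the lowest value for Spag5, Aspm, Hmmr, Haus1 and Ckap2l but the highest for Ckap5.

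Limma called 0 of the 13179 tested genes at a Benjamini-Hochberg adjusted p under 0.05 (0%) and 1027 genes (7.79%) had an unadjusted p under 0.05, so 0 of the 10 spindle assembly genes were called there. Limma-voom on reads recovered from the RPKM values called 6 of 13114 genes (0.0458%), of which Aspm was 1. In the authors' deposited table, 24 of the 15553 genes (0.154%) had an adjusted p under 0.05, of which 13 (0.0836% of all) were higher in knockout, and Aspm and Spag5 were 2 of these. In the authors' deposited table the log2 fold changes were 1.73 for Aspm, 2.38 for Spag5, 1.73 for Nusap1 and 0.58 for Ckap5. Nothing is read from these counts, since the comparison had chosen the genes.

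The order of the genes by level was compared per kilobase within each genotype. In wild type the highest mean belonged to Ckap5 (19.2 RPKM), followed by Ckap2l, Ckap2, Tpx2, Haus1, Gas2l3, Nusap1, Aspm, Hmmr and Spag5 (3.48 RPKM). In knockout Ckap2 came first (35.1 RPKM), followed by Ckap2l, Tpx2, Ckap5, Nusap1, Haus1, Gas2l3, Aspm, Hmmr and Spag5 (15.1 RPKM). By their means Aspm, Hmmr and Spag5 were thus the lowest 3 genes in both genotypes. This did not hold in each library, since Aspm ranked 7 in wild-type replicates 1 and 2 and 5 in knockout replicate 2. The ranges of neighbours overlapped at every step of both orders. Overlap of ranges does not compare neighbours within the same library, so it does not show that they were alike. Aspm lay above Hmmr in all 6 libraries, and Tpx2 lay above Haus1 in every wild-type library. The exonic lengths used by the authors were not known for Ckap2, Haus1 and Gas2l3, whose recovered reads were not whole, and their reads are estimates.

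The genes did not all move the same way among libraries of the same genotype. Relative to its own wild-type mean, wild-type replicate 3 was low by 1.13 log2 units in Spag5 (deviation -1.13), and its deviation was -1.06 in Ckap2l, -0.99 in Haus1 and -0.63 in Aspm. In the same library Ckap5 stood at 0.33, Tpx2 at 0.12, Gas2l3 at 0.09 and Ckap2 at 0.07 above their wild-type means, so 6 genes lay below and 4 above. The median deviation over all tested genes in that library was -0.02. Knockout replicate 3 had 9 of the 10 genes above their knockout mean, up to 0.55 in Nusap1, with Ckap2l at -0.18 as the exception. Knockout replicate 1, the library whose Yy1 level lay inside the wild-type range, had Tpx2 at -0.46, Hmmr at -0.40 and Aspm at -0.31, but Haus1 at 0.31 and Spag5 at 0.20. The coefficient of variation of RPKM was larger in wild type than in knockout in 6 of the 10 genes, with medians of 29.9% and 18.3%. Over the 9164 tested genes with a wild-type mean of at least 5 RPKM these medians were 27.6% and 22.8%.

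**Figure D4:**
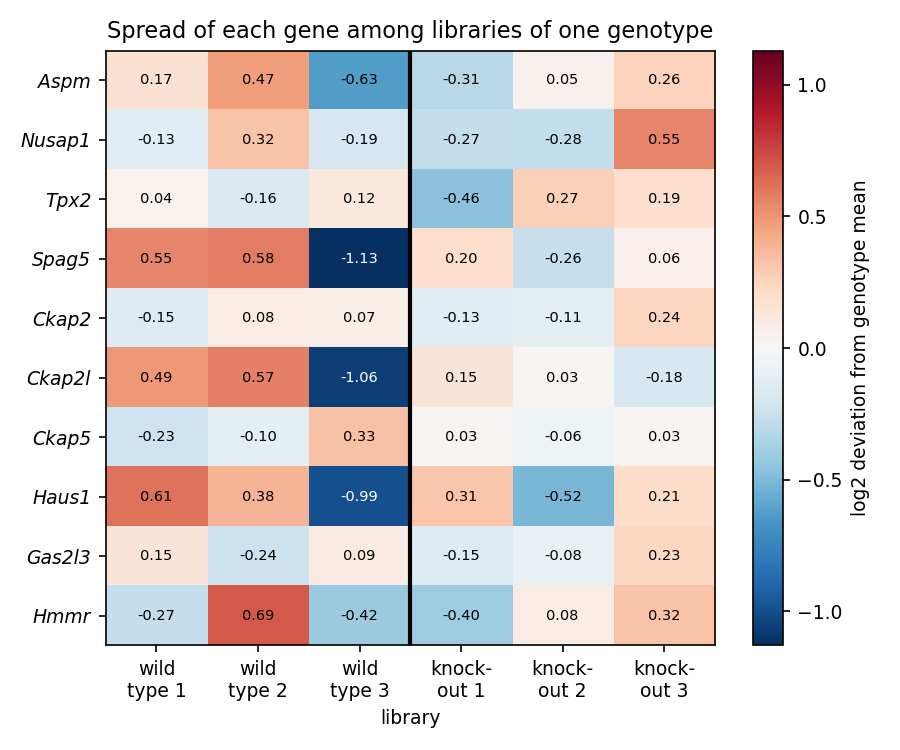
Log2 deviation of each gene (rows) in each library (columns) from the mean of its own genotype, on the log2(RPKM + 0.5) scale, with red above and blue below that mean. Wild-type replicate 3 holds the lowest values, from -1.13 in Spag5 to -0.63 in Aspm, while Ckap5 is above its mean there.

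Genes that work with these proteins were taken from 10 lists of other spindle genes and their regulators, written with earlier results of these data known. They held 96 genes, of which 90 were tested. Limma called 0 of the 90 after adjustment. Those with an unadjusted p under 0.05 were 16 higher and 0 lower, where 4.73% of all tested genes were higher and 3.06% lower. The 16 include genes low in wild type that passed the filter through knockout, such as Gas2l1 (0.0127 to 0.155 RPKM) and Fam83d (0.0339 to 1.2 RPKM). Both drop out when the filter is raised to 5 RPKM. That left 75 genes, of which 14 were higher and 0 lower (4.96% of all genes then tested were higher). Without knockout replicate 1 the 16 became 7 (3.11% of all tested genes were then higher), without knockout replicate 2 it became 8 (3.29%), and without wild-type replicate 3 it became 17 (5.26%), with 0 lower each time. Of the 90, 65 had a log2 fold change above 0, with a median of 0.32, against 51.9% of all tested genes and a median of 0.02. In 23 of the 90 every knockout library lay above every wild-type library (7.63% of all tested genes) and in 2, Tacc1 and Map4, every knockout library lay below (6.87%). Gas2l1 and Fam83d are among the 23 as well.

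Knstrn and Tacc3, which encode direct partners of astrin and ch-TOG, had the smallest unadjusted p-values of the 90 genes. Both were named for the size of their change, and whether partners differed from other genes was not tested. Knstrn, which encodes kinastrin, the partner of astrin, stood at 6.44, 7.21 and 4.38 RPKM in wild type against 21.5, 16.6 and 17.1 RPKM in knockout. Its groups did not overlap, and its log2 fold change was 1.56 (standard error 0.29, limma adjusted p = 0.314). Nde1, a dynein adaptor on the same list, went from 19.1 ± 8.10 to 36.7 ± 5.23 RPKM (log2 fold change 0.99, standard error 0.30, limma adjusted p = 0.546). The other 6 genes of that list, Dynll1, Ndel1, Pafah1b1, Dync1h1, Dctn1 and Dctn2, had unadjusted p-values above 0.05, and the list median was 0.15.

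Tacc3, whose product recruits ch-TOG to the spindle, stood at 8.48, 15.4 and 7.69 RPKM in wild type against 26.0, 22.3 and 36.3 RPKM in knockout. The log2 fold change of this gene was 1.42 (standard error 0.33, limma adjusted p = 0.429), whereas its relative Tacc1 stood at 20.8, 23.6 and 23.2 RPKM in wild type against 19.8, 19.1 and 19.0 RPKM in knockout (log2 fold change -0.22, standard error 0.19, limma adjusted p = 0.817). The plus-end gene Mapre3 differed by 0.40 on the log2 scale (standard error 0.58), from 0.14 without knockout replicate 1 to 0.70 without knockout replicate 2, and the list of TACC and plus-end genes had a median of 0.05, close to that of all genes. Aurka, which encodes the kinase Aurora A that Tpx2 activates, stood at 3.64, 3.90 and 0 RPKM in wild type against 12.9, 12.6 and 5.60 RPKM in knockout. The log2 fold change of this gene was 2.29 (standard error 0.87, limma adjusted p = 0.608) and 1.26 without wild-type replicate 3, where it had 0 reads. Kpna2, an importin gene of the Ran list, had a log2 fold change of 0.95 (standard error 0.47) with overlapping groups, at 0.61 without wild-type replicate 1 and 1.47 without wild-type replicate 3, and the median of that list was 0.25.

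Nedd1, which encodes the adaptor that joins the gamma-tubulin ring to augmin, stood at 5.61, 10.1 and 5.59 RPKM in wild type against 13.0, 16.3 and 14.7 RPKM in knockout. Its groups did not overlap, and its log2 fold change was 1.04 (standard error 0.32, limma adjusted p = 0.545). Tubg2, a gamma-tubulin gene at 0.0386 to 2.55 RPKM in wild type against 0.0876 to 5.27 RPKM in knockout, had a log2 fold change of 1.20 (standard error 1.10). With 1 library left out it ran from 0.61 (knockout replicate 1) to 2.26 (knockout replicate 3), and it was 0.69 without wild-type replicate 3. The 13 genes of gamma-tubulin and nucleation had a median of 0.11, and Nedd1 was the 1 gene with an unadjusted p under 0.05.

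The largest list median among those of at least 8 genes, 1.26 over 9 genes, belonged to other microtubule-binding proteins. In 4 of them, Prc1, Dlgap5, Fam83d and Gtse1, the unadjusted p was under 0.05 and every knockout library lay above every wild-type library. Gtse1 was named for the size of its change, and Prc1, Dlgap5 and Fam83d after their values were seen, so all 4 were chosen on this comparison. Prc1, which bundles the central spindle, went from 5.64, 10.4 and 5.02 RPKM to 17.5, 18.7 and 14.2 RPKM (log2 fold change 1.26, standard error 0.33, limma adjusted p = 0.451). Dlgap5, which encodes HURP, a stabilizer of kinetochore fibres, had a log2 fold change of 1.48 (standard error 0.35, limma adjusted p = 0.429). Gtse1 had one of 1.88 (standard error 0.65), which was 1.19 without wild-type replicate 1. Psrc1 had one of 1.77 (standard error 0.90) with overlapping groups, which was 0.83 without wild-type replicate 3 and 2.74 without wild-type replicate 1.

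Among the pole and centriole genes of microcephaly, the disease class of Aspm, the median was 0.71 over 8 genes. Stil, needed for centriole duplication, went from 3.79 ± 0.757 to 8.64 ± 1.02 RPKM (log2 fold change 1.10, standard error 0.34, limma adjusted p = 0.546). Wdr62, a pole protein that works with Aspm, went from 1.54 ± 1.01 to 4.08 ± 0.423 RPKM (log2 fold change 1.28, standard error 0.52, limma adjusted p = 0.631). Cit, the gene of citron kinase, was the third with an unadjusted p under 0.05, at 1.0 (standard error 0.36). Tubulin genes, the building blocks of the spindle and of all other microtubules, had a median of 0.46 over 9 genes. The abundant Tubb5 stood at 158, 174 and 191 RPKM in wild type against 259, 237 and 223 RPKM in knockout, a log2 fold change of 0.46 (standard error 0.16, limma adjusted p = 0.572). Tuba1c was the other tubulin with an unadjusted p under 0.05, at 0.58 (standard error 0.22). Tuba8 (1.11, standard error 0.58) and Tubb2a (0.60, standard error 0.92) had the largest differences of that list. With wild-type replicate 3 left out they were 0.48 and 0.31, below Tuba1c at 0.67 and Tubb5 at 0.52, and Tubb2a ran from 0.15 (without wild-type replicate 1) to 1.33 (without wild-type replicate 2).

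The list of regulators of mitotic genes had a median of 0.39 over 14 genes. It holds regulators that act through the CHR and CCAAT elements and also an E2F gene and partners of E2F proteins. Mybl2, the B-MYB subunit of the activating complex, stood at 2.77, 5.28 and 1.37 RPKM in wild type against 7.43, 5.16 and 3.51 RPKM in knockout, with overlapping groups and a log2 fold change of 0.78 (standard error 0.54, limma adjusted p = 0.774). This value was 0.38 without wild-type replicate 3 and 1.19 without wild-type replicate 2. Lin37, a subunit of the MuvB core, had a log2 fold change of 1.56 (standard error 1.08), with 6.47, 9.26 and 0 RPKM in wild type against 10.8, 5.11 and 13.2 RPKM in knockout. Without wild-type replicate 3, where it was listed at 0, the value was 0.21, and without wild-type replicate 2 it was 2.35. Tfdp1, a partner of E2F proteins, was the 1 gene of this list with an unadjusted p under 0.05, at 0.68 (standard error 0.26, limma adjusted p = 0.611).

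**Figure D5:**
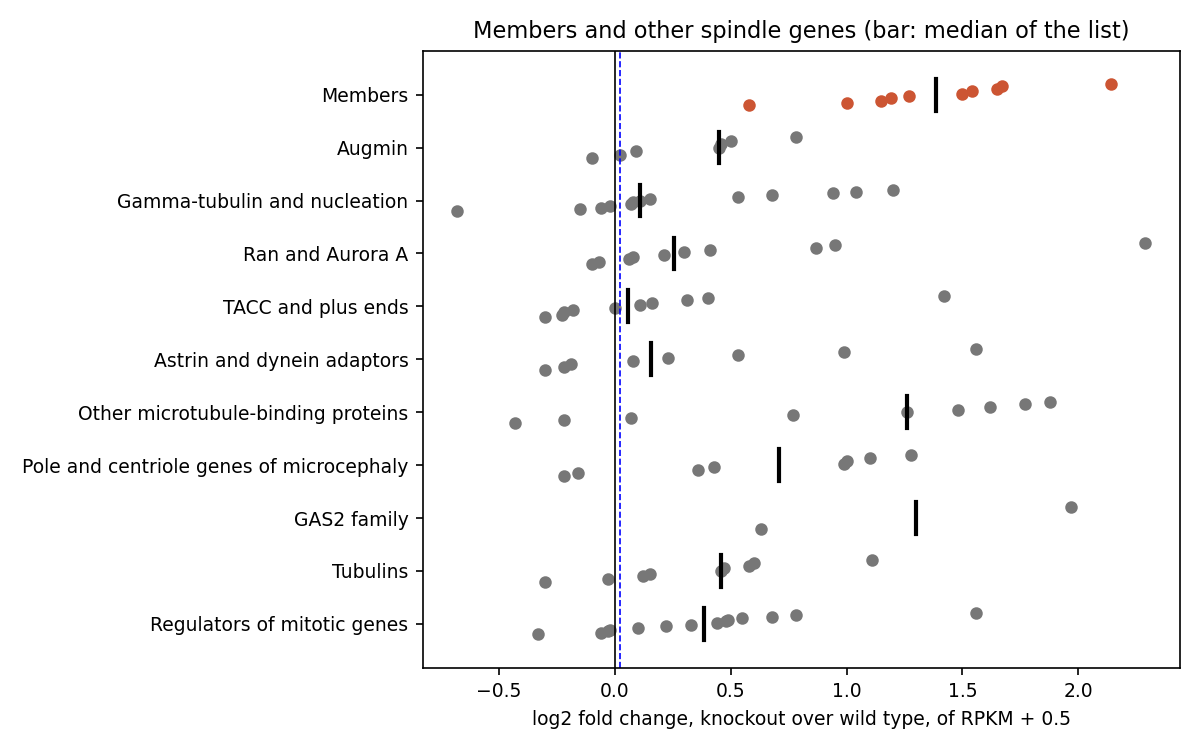
Log2 ratio of knockout to wild type on the log2(RPKM + 0.5) scale (x axis) for the 10 spindle assembly genes (red) and for the tested genes of 10 lists (grey), with a black bar at each median and a dashed line at 0.02, the median of all tested genes. The list of other microtubule-binding proteins has a median of 1.26, and those of TACC and plus-end genes and of gamma-tubulin genes lie at 0.05 and 0.11.

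The genes whose pattern over the 6 libraries was most like the mean of the 10, among 9236 other genes with a mean of at least 5 RPKM, were Bex4, Atad2, Kif2c, Neil3 and Setd8. Their Pearson correlations with that mean were 0.9917, 0.9910, 0.9906, 0.9899 and 0.9881 over 6 libraries, which fall into 2 genotypes, so a difference between genotypes alone gives a high value. The cut at 5 RPKM was on the mean over all 6 libraries, and Kif2c and Neil3 reached it only through their knockout libraries. Neil3 stood at 1.23 to 2.30 RPKM in wild type against 11.2 to 18.1 RPKM in knockout. Kif2c, a microtubule-depolymerizing kinesin, stood at 1.60, 2.85 and 0.682 RPKM in wild type against 8.47, 9.21 and 10.5 RPKM in knockout. Bex4 stood at 14.1, 13.3 and 10.1 RPKM and 33.8, 33.4 and 43.9 RPKM, and the chromatin gene Atad2 at 30.4, 30.0 and 22.6 RPKM and 45.2, 46.6 and 57.6 RPKM. The DNA glycosylase gene Neil3 had a log2 fold change of 2.66 and Setd8, which encodes a histone H4 methyltransferase of mitotic chromatin, one of 0.40. Of the 10 genes, 4 lie on chromosome 2 (Nusap1, Tpx2, Ckap2l and Ckap5), where 7.97% of the listed genes with a position lie, and they are at least several megabases apart.

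Markers of the sorted cells and of other marrow cells were measured beside these genes, and their part in the differences was not tested. The 7 genes of the sort gate and of stem cells, all listed, summed to 476 to 545 RPKM in wild type against 323 to 360 RPKM in knockout, and Cd48 was at 0 to 3.76 RPKM in wild type against 0 to 1.97 RPKM in knockout. Slamf1, the gene of CD150, stood at 2.21 to 3.90 RPKM in wild type against 3.77 to 5.96 RPKM in knockout. Megakaryocyte and platelet markers (9 of 11 listed) summed to 37.4 to 51.9 RPKM in wild type against 66.5 to 124 RPKM in knockout, and erythroid markers (8 of 11 listed) to 44.1 to 60.5 RPKM and 62.9 to 146 RPKM. Both sums thus lay higher in every knockout library. Taken singly, only Pf4, Gp9 and Itga2b of the first list and only Hbb-bs of the second did so, and their other listed genes overlapped. Hbb-bs stood at 3.5, 14.4 and 15 RPKM in wild type against 28.8, 15.6 and 78.8 RPKM in knockout. Of all tested genes, 7.63% lay higher in every knockout library. Granulocyte markers (8 of 9 listed) summed to 17.7 to 171 RPKM and 35.2 to 299 RPKM, with overlap. Monocyte and macrophage markers (3 of 6 listed) summed to 0.0282 to 0.429 RPKM in wild type against 0.921 to 2.27 RPKM in knockout. These sums did not overlap, but none of the 3 genes, Ly6c2, Fcgr1 and Ccr2, lay higher in every knockout library. Their values were low, from 0 to 1.77 RPKM over the 6 libraries. The 1 listed B cell marker of 6, Cd79b, stood at 13.3 to 28.6 RPKM and 9.15 to 21.4 RPKM, the 2 listed T and NK cell markers of 6 summed to 5.07 to 15.6 RPKM and 4.32 to 9.19 RPKM, and the 4 listed endothelial and stromal markers of 6 to 8.98 to 14.5 RPKM and 8.97 to 11.8 RPKM. Of the granulocyte genes Elane was at 0 in 4 of the 6 libraries, whereas S100a9 stood at 3.63 to 149, S100a8 at 0.39 to 31.3 and Prtn3 at 5.79 to 15.4 RPKM over the 6 libraries.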

How the data were processed

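The submitters' processing notes name mm10 as the genome and Subread, featureCounts, limma and edgeR as tools of the authors, without versions or settings. The unit of the 6 library columns was found from the values: the deposited values behaved as RPKM. Multiplied by exonic gene lengths of GENCODE M21 they fell within 0.02 reads of whole multiples of 1 step per library. This held in every library for 71.8% of genes (11101 of 15465 that had a length), 7 of the 10 members included, and for 73.4% to 75.2% of the values of a library. Per the file headers, the remaining columns hold the authors' log2 fold change, p-value and adjusted p-value, and their test is not named.

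Log2(RPKM + 0.5) values were compared with limma 3.58.1 (R 4.3.3), with a variance trend and no robust fitting, over genes reaching 1 RPKM in 3 or more libraries, with Benjamini-Hochberg adjustment at 0.05. The fit was tested on simulated data. Alternatives were other pseudocounts and filters, quantile normalization, no trend, limma-voom on recovered reads, a replicate block and leaving out each library. At this depth counting error grows as reads become few, and the kit amplifies RNA, so reads are not independent molecules. The members and all lists were chosen with earlier results of these data known. Besides the members and Yy1, the text names the 2 genes of each list with the largest absolute log2 fold change, the 5 genes most correlated with the mean of the members, and, chosen after their values were seen, list genes with an unadjusted p under 0.05, the augmin subunits and Tacc1 and Map4. Features of the proteins had been planned and were not analysed here.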

Additional observations from a re-analysis of the deposited data

How the results depend on the processing

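The median log2 fold change of the 10 spindle assembly genes, 1.39, ranged from 1.26 to 1.50 over 14 alternatives, which is less than the replicate spread of 0.30, and each of the 10 genes moved by less than its own spread. Since the groups were separate in all 10 genes, leaving out a library could not make them overlap. With 1 library left out Ckap2l ranged from 0.46 to 1.28, Haus1 from 1.01 to 1.81 and Spag5 from 1.58 to 2.43. The count of limma calls over all genes, 0, ranged from 0 to 1 when 1 library was left out (1 without wild-type replicate 1 and 1 without wild-type replicate 2) and was 6 in limma-voom. The other spindle genes had 0 calls under every alternative run. Among the other named genes, 9 values moved by more than the replicate spread and 514 did not; Aurka was at 4.15, Fam83d at 3.09, Gas2 at 1.40, Gas2l1 at 5.08 and Neil3 at 3.04 in limma-voom, and the cause was not tested. Promoters with a CHR match numbered 4 in place of 7 in the 250 bases before the start, since the matches of Aspm, Hmmr and Spag5 begin after it. With a replicate block the median of the 10 genes was 1.39 and limma again called 0 genes. Same-numbered libraries deviated together with correlations of 0.02, 0.06 and 0.05, so the numbers were not taken to pair the libraries. These numbers are those of the sample titles, whereas the column header of the last knockout replicate skips a number.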
